A study of Mus musculus with 6 samples.

Results

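Chemokines are small secreted proteins that draw leukocytes along a gradient by binding receptors coupled to G proteins. The CC family carries its first cysteine residues side by side. Its members are known as products of fibroblasts and macrophages exposed to infection, and several are induced through NF-kB, through interferon signalling or through both. Ccrl2 encodes an atypical receptor that binds the attractant chemerin and holds it at the cell surface for the signalling receptor Cmklr1, without a known chemotactic signal of its own.

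The 8 genes described here are 7 CC chemokines (Ccl2, Ccl3, Ccl4, Ccl5, Ccl7, Ccl12 and Ccl22) and Ccrl2, taken by name from 19938 genes measured. Each of the 8 had 1 probe set, annotated to that gene alone. The arrays came from 3 mouse lines, with 1 array for each line and condition. These were NIH3T3 embryonic fibroblasts with IFN-β for 4 h and unstimulated, L929 connective tissue fibroblasts with IFN-β for 4 h and unstimulated, and RAW264.7 macrophages with IFN-β for 4 h and unstimulated. IFN-β is a type I interferon, and the series' aim was to find genes it regulates. All 3 are immortal lines in culture, and the labels used here state no dose of IFN-β. Values are log2 levels, so that a difference of 1 is a 2-fold difference. A probe set's level cannot be set against that of another gene, and the median and lower quartile of an array serve below only as marks of a dim signal.

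On the unstimulated arrays the 11 macrophage markers had a median log2 level of 10.80 in RAW264.7, 4.33 in L929 and 3.86 in NIH3T3, while for 10 fibroblast markers it was 5.24, 10.69 and 10.83. Some fibroblast markers went against their list. Dcn had a level of 3.47 in RAW264.7 and 3.41 in L929, and Thy1 one of 5.11 in RAW264.7 and 4.96 in L929, while Vim (10.54) and S100a4 (9.61) were also high in RAW264.7. Medians of the 4 lymphocyte markers measured lay between 4.37 and 4.61 over the 6 arrays, and medians of the 5 epithelial markers between 4.92 and 5.45. The median level of all genes was 5.49 on the stimulated NIH3T3 array and 5.07 to 5.22 on the other arrays. The median change of all genes with IFN-β was -0.05 in L929, 0.17 in NIH3T3 and -0.03 in RAW264.7. Genes under the lower quartile of the unstimulated array, called low below, had a median change of 0.07 in L929, 0.32 in NIH3T3 and 0.03 in RAW264.7. A change within a line compares 1 array with 1 array and carries no error, and the lines are the only replicates of the IFN-β effect. The p-values therefore rest on the spread between these lines, moderated in limma towards a variance estimated over all genes. That shared variance carried a prior of 7.87 degrees of freedom beside the 2 residual ones. A larger share of responding cells and more RNA per cell cannot be told apart in such cultures.

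Averaged over the 3 lines, Ccl2, Ccl7 and Ccrl2 were higher with IFN-β, at an adjusted p under 0.05 in limma with the cell line as a block. The other 5 genes did not pass. The 3 called members of 8 stand beside a background of 0.732% of all genes called higher and 0% called lower. The 8 genes were chosen with earlier results of these data known, so setting them against shares of all genes is no test. Each of the 8 was higher with IFN-β in all 3 lines, as were 15.5% of all genes. The median of the mean log2 changes was 1.03 over the 8 genes, against 0.03 over all genes. Changes of the 8 were moderate. The largest within a line was 4.97-fold, for Ccrl2 in RAW264.7.

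**Figure D1:**
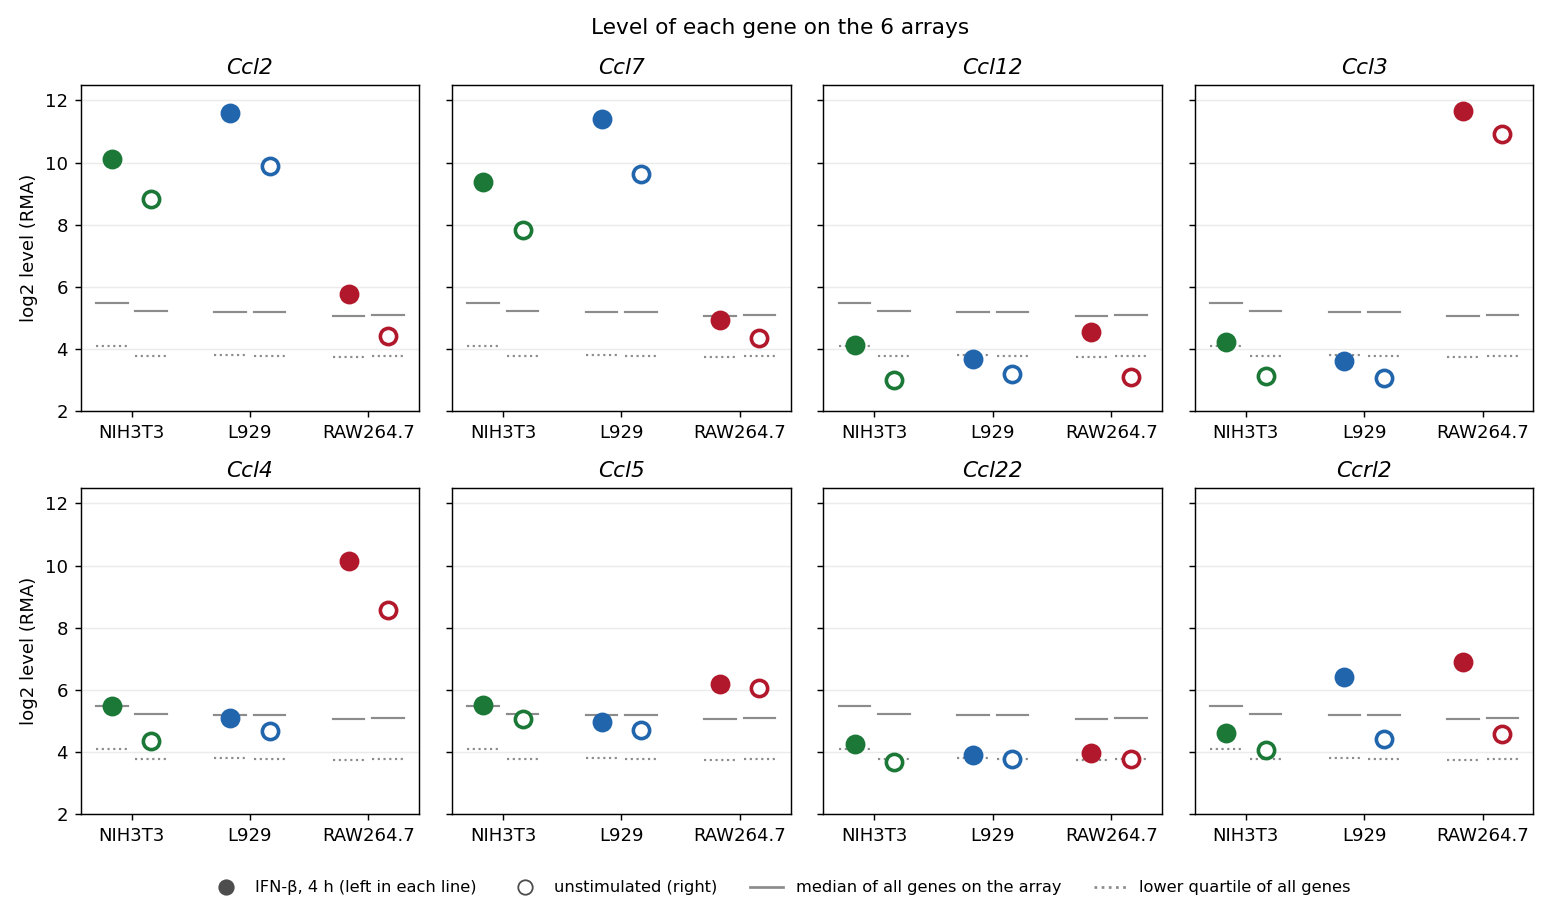
Log2 level (vertical axis) of each of the 8 genes on the 6 arrays, with the stimulated array (filled) left of the unstimulated one (open) in each line, and grey lines for the median and lower quartile of all genes on that array. Ccl2 and Ccl7 were high in the fibroblast lines, Ccl3 and Ccl4 were high in RAW264.7, and in all 8 panels the filled point lies above the open one in each line.

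Ccl2 encodes the monocyte attractant MCP-1, and Ccl7 and Ccl12 encode the related monocyte attractants MCP-3 and MCP-5. The log2 level of Ccl2 (probe set 10379511) was 11.58 in stimulated and 9.90 in unstimulated L929, 10.13 and 8.81 in NIH3T3, and 5.77 and 4.41 in RAW264.7. The fibroblast lines were high in both conditions. Both RAW264.7 arrays lay below all 4 fibroblast arrays, and the unstimulated one was under its array's median of 5.10. Without IFN-β, RAW264.7 was 4.94 below the mean of the fibroblast lines, 9.35, on the log2 scale. With a single unstimulated array per line, that difference has no test.

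The change of Ccl2 with IFN-β was close in the 3 lines, 1.69 in L929, 1.32 in NIH3T3 and 1.35 in RAW264.7, with an SD of 0.20. Its mean was 1.45 ± 0.17 (limma SE, n = 3 lines), or 2.73-fold, with a limma adjusted p of 0.00200. Ccl2 passed without any 1 of the lines, at adjusted p-values of 0.00790 without NIH3T3, 0.0101 without L929 and 1.94e-05 without RAW264.7 in limma. The fit without RAW264.7 gave every member the same SE, 0.29, against 0.17 for Ccl2 in the full fit. Its small p-value therefore does not measure the spread of Ccl2 itself. The call was lost when all 35557 probe sets entered the fit (limma adjusted p = 0.0965). In each line under 1% of all genes had a larger change than Ccl2.

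Ccl7 (probe set 10379518) followed Ccl2 in the order of the lines. Its log2 level was 11.41 in stimulated and 9.63 in unstimulated L929, 9.37 and 7.83 in NIH3T3, and 4.92 and 4.35 in RAW264.7. Both RAW264.7 levels were under the median of their array. The changes were 1.78, 1.53 and 0.57 in that order of lines, with the larger values in the fibroblast lines. The mean was 1.30 ± 0.23 (SE), 2.46-fold, with a limma adjusted p of 0.0324. The call was lost without NIH3T3 (limma adjusted p = 0.218), without L929 (0.182), after quantile normalization (0.0505) and with all probe sets in the fit (0.388). The RAW264.7 change lay -1.09 ± 0.49 (SE) from the fibroblast mean of 1.66 in the limma interaction test and did not pass. That fit gave all genes the same SE, which does not measure the spread of Ccl7 itself.

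Ccl12 (probe set 10379530) was low in every line without IFN-β. Its log2 level was 3.68 in stimulated and 3.20 in unstimulated L929, 4.13 and 3.00 in NIH3T3, and 4.56 and 3.10 in RAW264.7. All 6 levels were under the median of their array, and 4 of them were under the lower quartile. The largest change was 1.46 in RAW264.7, followed by 1.13 in NIH3T3 and 0.48 in L929. The mean of 1.02 ± 0.20 (SE) had a limma adjusted p of 0.0680 and did not pass. After quantile normalization that adjusted p was 0.194. Without L929 the mean was 1.29, with a limma adjusted p of 0.0160.

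The sequence before the start of Ccl12 is shown because this gene, low in unstimulated cells, had the largest log2 change of the MCP group in RAW264.7. Of the 8 genes 4 had a window in the RefSeq promoter table (GRCm38.p6), namely Ccl3, Ccl12, Ccl22 and Ccrl2. The 250 bases before the start of Ccl12, at chr11:82101595-82101844 on the plus strand, hold the letters TATAAA, in capitals, 31 to 26 bases before the start.

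Ccl12: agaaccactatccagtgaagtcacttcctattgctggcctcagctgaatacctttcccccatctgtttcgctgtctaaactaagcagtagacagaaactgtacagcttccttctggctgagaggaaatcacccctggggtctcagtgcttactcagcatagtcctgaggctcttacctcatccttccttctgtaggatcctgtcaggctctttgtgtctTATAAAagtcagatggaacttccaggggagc

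TATAAA on the strand of the gene occurs in 8.32% of the table's 32851 windows of 300 bases, counted from 250 bases before to 50 after each start. Neither the core of the interferon-stimulated response element (ISRE), nor the GAS element of STAT dimers (TTCNNNGAA), nor the kappa-B consensus matched in the Ccl12, Ccl3 or Ccl22 windows on either strand. These occur in 3.44%, 8.30% and 4.51% of all windows. A window of this length says nothing of sites farther away.

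Ccl3 and Ccl4 encode MIP-1 alpha and MIP-1 beta, inflammatory chemokines that macrophages secrete in quantity. Both were high in RAW264.7 alone among these lines. Ccl3 (probe set 10389231) had log2 levels of 11.68 in stimulated and 10.91 in unstimulated RAW264.7, against 3.61 and 3.06 in L929 and 4.23 and 3.14 in NIH3T3. In both fibroblast lines the unstimulated level was under the lower quartile of the array. The unstimulated difference of RAW264.7 from the fibroblast mean of 3.10 was 7.80, the widest of the 8 genes. With IFN-β the changes were 0.77 in RAW264.7, 0.55 in L929 and 1.09 in NIH3T3, with a mean of 0.80 ± 0.17 (SE) and a limma adjusted p of 0.104. In NIH3T3 the change was 0.79 after quantile normalization.

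Ccl4 (probe set 10379721) had log2 levels of 10.14 in stimulated and 8.57 in unstimulated RAW264.7, against 5.11 and 4.66 in L929 and 5.48 and 4.37 in NIH3T3. All 4 fibroblast levels were under the median of their array. Without IFN-β, RAW264.7 was 4.05 above the fibroblast mean of 4.52. The change was 1.57 in RAW264.7, 2.97-fold and so just under the 3-fold mark of the series, 1.11 in NIH3T3 and 0.45 in L929. The mean was 1.04 ± 0.22 (SE), with a limma adjusted p of 0.0813. Without L929 it was 1.34, with a limma adjusted p of 0.0156.

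Ccl5 encodes RANTES, an attractant of T cells, monocytes and eosinophils that is known as a target of antiviral signalling. Its log2 level (probe set 10389207) was 4.98 in stimulated and 4.72 in unstimulated L929, 5.52 and 5.05 in NIH3T3, and 6.19 and 6.07 in RAW264.7. The order of the lines was the same in both conditions, with RAW264.7 the highest and L929 the lowest. The changes were 0.26, 0.46 and 0.13 in that order of lines, with a mean of 0.28 ± 0.16 (SE) and a limma adjusted p of 0.964. In each line over 17% of all genes had a larger change.

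Ccl22 encodes MDC, an attractant of regulatory and Th2 T cells through Ccr4, made mostly by dendritic cells and macrophages. Its log2 level (probe set 10574213) was 3.92 in stimulated and 3.77 in unstimulated L929, 4.26 and 3.69 in NIH3T3, and 3.97 and 3.76 in RAW264.7. All 6 levels were under the array median, and the 3 unstimulated ones were under the lower quartile. The changes were 0.14, 0.57 and 0.21, with a mean of 0.31 ± 0.17 (SE) and a limma adjusted p of 0.964. In NIH3T3 low genes as a group had a median change of 0.32, beside 0.57 for Ccl22. With arrays centred on their median, the NIH3T3 change of Ccl22 was 0.30.

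Ccrl2 (probe set 10597279) had the largest mean change of the 8 genes. Its log2 level was 6.40 in stimulated and 4.41 in unstimulated L929, 4.60 and 4.08 in NIH3T3, and 6.89 and 4.58 in RAW264.7. The 3 unstimulated levels were within 0.504 of each other and all under the median of their array. With IFN-β, NIH3T3 had the lowest level of the 3 lines. The changes were 2.31 in RAW264.7, or 4.97-fold, 1.99 in L929, or 3.97-fold, and 0.52 in NIH3T3, or 1.44-fold. In RAW264.7 67 genes had a larger change, and in NIH3T3 3190. The NIH3T3 change of Ccrl2 was 0.25 with arrays centred on their median and 0.23 after quantile normalization.

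The mean change of Ccrl2 was 1.61 ± 0.29 (SE), with an SD between the lines of 0.95 and a limma adjusted p of 0.0412. That SE draws on the variances of all genes as well as on this SD. The call depended on the lines and the scaling. It was lost without L929 (limma adjusted p = 0.201), with arrays centred on their median (0.0878), after quantile normalization (0.214), with trend and robust variances (0.0585) and with all probe sets in the fit (0.454). Without NIH3T3 the mean was 2.15, with a limma adjusted p of 0.00125. The change in NIH3T3 was 1.63 ± 0.32 (SE) below the mean of 2.15 in the other lines. The interaction test gave this difference an unadjusted p of 0.000856 and an adjusted p of 0.497 in limma, so it did not pass over all genes.

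The sequence before the outermost of the 3 annotated starts of Ccrl2 is shown because this gene had the largest mean change of the 8. Among the windows of the 4 genes that had any, it alone matched the kappa-B consensus. It lies at chr9:111057519-111057768 on the minus strand (GRCm38.p6, RefSeq), and the capitals mark the match, 56 to 47 bases before the start.

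Ccrl2: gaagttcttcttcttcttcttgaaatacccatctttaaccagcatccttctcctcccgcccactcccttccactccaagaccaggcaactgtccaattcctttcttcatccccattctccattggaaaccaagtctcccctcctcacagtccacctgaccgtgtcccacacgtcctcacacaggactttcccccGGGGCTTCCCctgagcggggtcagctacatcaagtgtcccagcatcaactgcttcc

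The windows of the other two starts held no match to the kappa-B, GAS or ISRE letters, and this window held none to GAS or ISRE. A match is a run of letters and was not tested as a binding site.

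**Figure D2:**
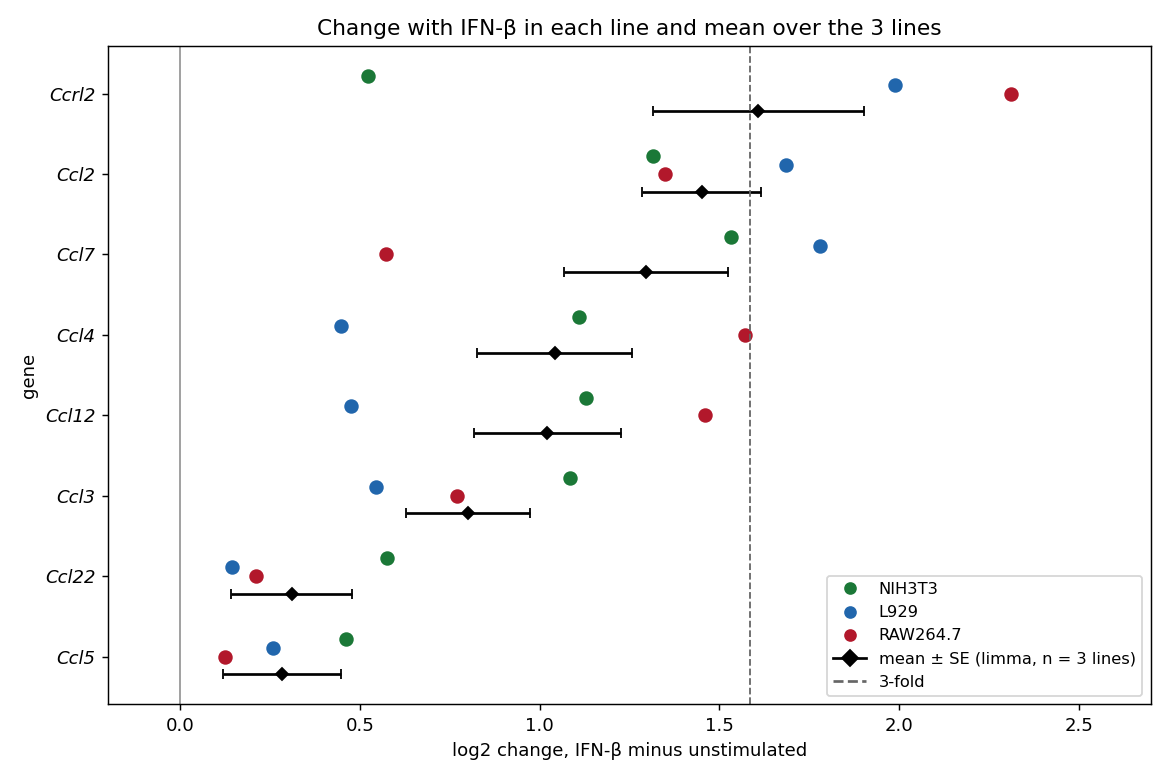
Log2 change with IFN-β (horizontal axis, stimulated minus unstimulated) of each gene (vertical axis) in the 3 lines as coloured points, with the mean and limma's SE over the 3 lines as a black diamond and bar and a dashed line at 3-fold. The 3 points of Ccl2 lie between 1.32 and 1.69, whereas those of Ccrl2 run from 0.52 to 2.31.

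The series counted genes upregulated at least 3-fold, and by that mark the lines held different numbers of the 8 genes. NIH3T3 had 0 of 8 at least 3-fold higher, beside 0.476% of all genes. L929 had 3, namely Ccl2 at 3.22-fold, Ccl7 at 3.44-fold and Ccrl2, beside 0.893% of all genes. RAW264.7 had 1, Ccrl2, beside 0.617% of all genes. At 2-fold, NIH3T3 had 5 (Ccl2, Ccl3, Ccl4, Ccl7 and Ccl12) beside 1.73% of all genes. That count was 2 (Ccl2 and Ccl7) with arrays centred on their median, beside 0.747% of all genes, and the same 2 after quantile normalization, beside 0.893%. At the same mark L929 kept its 3 genes, beside 1.57% of all genes, and RAW264.7 had 4 (Ccl2, Ccl4, Ccl12 and Ccrl2), beside 1.14%. Those 3 and 4 genes stayed past 2-fold with centred arrays, beside 1.58% of all genes in L929 and 1.2% in RAW264.7, and after quantile normalization, beside 1.63% and 1.11%. Ccl2 was the only member at least 2-fold higher in all 3 lines.

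The difference between the lines was then tested, with each line in turn set against the mean of the other two in a limma interaction fit. None of the 8 genes passed in any of the 3 comparisons (0, 0 and 0), where 0.0702% of all genes passed for L929, 0.00502% for NIH3T3 and 0.236% for RAW264.7. At an unadjusted p under 0.05 there was 1 member for NIH3T3 (Ccrl2), beside 9.92% of all genes. There were 2 for L929 (Ccl4, with a difference of -0.89, and Ccl12, with -0.82), beside 6.54% of all genes, and 2 for RAW264.7 (Ccl7 and Ccrl2), beside 1.59%. These fits rest on 1 residual degree of freedom and assume that a single pair of arrays varies like the pairs of the other lines. The RAW264.7 fit gave all genes the same SE, so its p-values do not measure the spread of any 1 gene. A missed threshold does not show that a gene responded alike in the lines.

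Of the 8 genes 6 lie on chromosome 11 in RefSeq, in 2 runs of CC chemokine genes, while Ccl22 lies on chromosome 8 and Ccrl2 on chromosome 9. In the first run the order is Ccl2, Ccl7, Ccl11, Ccl12, Ccl8 and Ccl1. Ccl11, the eosinophil attractant eotaxin, lies between Ccl7 and Ccl12 and had log2 changes of -0.08 in L929, 0.49 in NIH3T3 and -0.09 in RAW264.7 (limma adjusted p = 0.967). Ccl8, which encodes MCP-2, had changes of 0.31, 1.81 and 0.08 in that order of lines. Its log2 level of 5.17 in stimulated NIH3T3, against 3.36 in unstimulated NIH3T3, was under the array median. Its mean was 0.73 ± 0.29 (SE), with a limma adjusted p of 0.819. Ccl1, at the end of the run, had changes of 0.05, 0.49 and 0.20 (adjusted p = 0.964).

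In the second run the order is Ccl5, Ccl9, Ccl6, Ccl3 and Ccl4. Ccl9 and Ccl6, both myeloid chemokines of the mouse, had mean changes of 0.06 and 0.16, between Ccl5 at 0.28 and the pair of Ccl3 and Ccl4 at 0.80 and 1.04. Ccl9 had a log2 level of 9.95 in stimulated and 9.81 in unstimulated RAW264.7, against 8.51 and 8.29 in L929 and 5.86 and 6.03 in NIH3T3. Its level was highest in RAW264.7, with no change above 0.22 in any line. The outer neighbours Heatr9, 1700071K01Rik and Tmem132e had mean changes of 0.04, -0.01 and 0.07, and Wfdc17, next to Ccl4, one of 0.27.

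**Figure D3:**
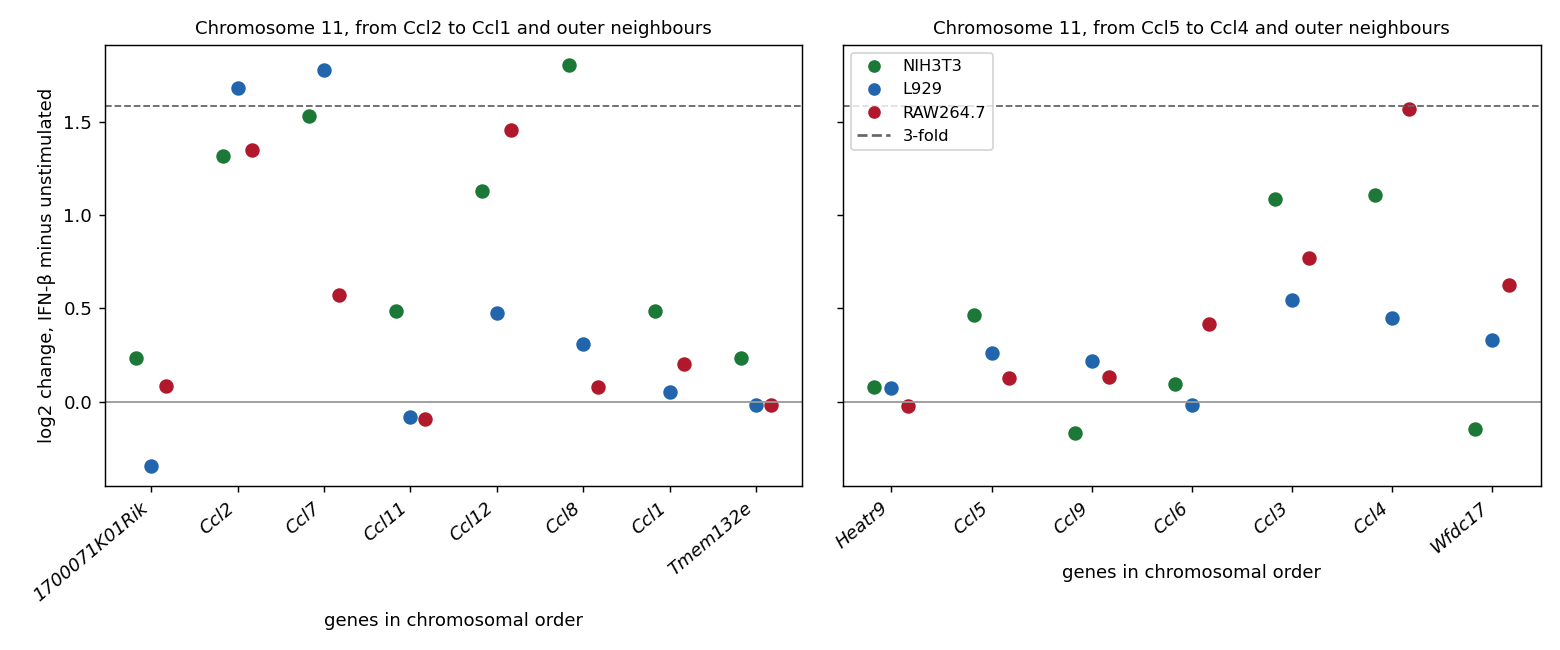
Log2 change with IFN-β (vertical axis) in the 3 lines for the genes of both chemokine runs on chromosome 11, in chromosomal order (horizontal axis) with the next protein-coding gene on each side. No point of Ccl11, Ccl9 or Ccl6 lies above 0.49, and Ccl8 reaches 1.81 in NIH3T3 but 0.31 in L929 and 0.08 in RAW264.7.

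Among the other CC chemokines, 12 of 16 listed genes were measured by a probe set of 1 gene, and 0 rose and 0 fell across the lines in limma, with 1 at an unadjusted p under 0.05 (Ccl8), beside 5.48% of all genes. Their median mean change was 0.10. Ccl26, an eotaxin-like gene, had changes of 0.50 in L929, -0.14 in NIH3T3 and 0.36 in RAW264.7. In these lines Ccl8 in NIH3T3 was the one case among them of a change of at least 3-fold. Members and this list were chosen with earlier results of these data known, so the contrast between them is no test.

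The receptors of these ligands and the partners of Ccrl2 were measured through 16 of 17 listed genes, of which 0 rose and 0 fell in limma and 2 had an unadjusted p under 0.05, beside 5.48% of all genes. Most were low, with 13 of 16 under the lower quartile in unstimulated NIH3T3, 10 in L929 and 10 in RAW264.7. Rarres2, which encodes chemerin, had a log2 level of 8.66 in stimulated and 7.43 in unstimulated L929, 4.20 and 3.37 in NIH3T3, and 3.39 and 3.81 in RAW264.7. Its level was highest in L929 in both conditions. Its changes were 1.23, 0.83 and -0.42 in that order of lines (mean 0.55 ± 0.27, limma adjusted p = 0.964). Cmklr1, the signalling receptor for chemerin, lay between 4.51 and 5.05 on all 6 arrays. Ackr2, a scavenger receptor for CC chemokines, had changes of 0.22 in L929, 1.27 in NIH3T3 and -0.12 in RAW264.7, and the receptor-like Ccr1l1 had changes of 0.49, 0.74 and 0.20. Ccr2, the receptor of the MCP group, stayed under the lower quartile of every array, with levels from 2.53 to 3.24.

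The interferon response was measured on the same arrays. All 10 measured genes of the interferon list rose in limma, with a median mean change of 4.80. Ifit1, which binds viral RNA, had a mean change of 6.33, Ifit3 one of 6.01 and Usp18, which removes ISG15, one of 5.56. Of 12 measured NF-kB genes and targets 0 passed in limma, with 4 at an unadjusted p under 0.05, beside 5.48% of all genes, and a median mean change of 0.20. Among these Il6, a cytokine, had changes of 3.96 in L929, 1.13 in NIH3T3 and 0.55 in RAW264.7. Tnf had a mean change of 0.55, with log2 levels of 10.58 in stimulated and 9.87 in unstimulated RAW264.7, and Bcl3 had one of 0.39.

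The genes whose 6 levels ran most like those of each member were found by the root mean square difference of log2 levels over the 6 arrays, after each gene was centred on its own mean. Arrays of a line share that line, so likeness here follows the line first. Ccl2 and Ccl7 were nearest to each other among all genes, at 0.36, and no other gene came within 0.50 of either. Osmr, a receptor for oncostatin M, was next for Ccl2 at 0.56, with changes of 0.88 in L929, 0.22 in NIH3T3 and 0.50 in RAW264.7. Steap1, a metalloreductase, followed at 0.62. The order of these was reversed for Ccl7, at 0.66 for Osmr and 0.64 for Steap1. Nearest to Ccl3 were Stap1 (0.29), the integrin gene Itga4 (0.32) and the myeloid lectin gene Clec5a (0.35). Nearest to Ccl4 were Sema4d (0.31), Ms4a6d (0.34) and Ltb, lymphotoxin beta (0.34).

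Ccrl2 was nearest to Trafd1, an interferon-induced regulator of TRAF signalling, at 0.23. Trafd1 had changes of 2.41 in RAW264.7, 2.07 in L929 and 0.89 in NIH3T3, the same order of lines as Ccrl2. Trafd1 was picked for its nearness to Ccrl2 on these same levels, so the shared order is no separate sign of likeness. Setdb2, a histone methyltransferase gene, followed at 0.30 and Gm1966 at 0.34. Ccl12 was nearest to Bex6, Arel1 and Rnf135, at 0.21, 0.22 and 0.23, and 1738 genes lay within 0.50 of it. For Ccl5 the nearest were Ccdc88b, Kcnk13 and Osm, at 0.08 to 0.11, and 3893 genes lay within 0.50. For Ccl22 15352 of the 19938 genes lay within 0.50, with Pate13, Olfr815 and Asb18 at 0.04 each.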

How the data were processed

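Total RNA of 6 cultures was labelled with a whole-transcript kit and hybridised to 1 Affymetrix array each, per the labels' protocols. The deposited values are log2 levels made by the authors with RMA, per the submitters' processing notes. The labels state neither a version nor settings of RMA, and that the values are log2 was judged from their range.

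Of 35557 probe sets, 21789 name a single gene, 1621 several and 12147 none in the platform annotation. Symbols were updated by Entrez ID, which failed to match for 91 probe sets. The probe set with the highest mean was kept per gene. No filter on low levels was applied. Members and lists were chosen with earlier results of these data known. Named genes were the 8 members, their 3 nearest patterns, and from each list the 3 largest mean changes, the widest range and, in the chemokine and receptor lists, changes of at least 3-fold. Genes named as neighbours, Ccl9, Cmklr1 and Ccr2, and the TATAAA search were added after the values were seen.

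All genes were fitted with limma 3.58.1 (R 4.3.3) on cell line plus treatment, with a prior of 7.87 degrees of freedom beside the 2 residual ones. p-values were adjusted by Benjamini and Hochberg's method over 19938 genes. A line's arrays are a pair through the line itself. Interaction fits had 1 residual degree of freedom, and the RAW264.7 one gave all genes 1 standard error. Both kinds of fit were tested on simulated data, where the RAW264.7 interaction made false calls above its nominal rate. Python 3.11.15 with pandas 2.3.3 and matplotlib 3.10.9 did the rest. Alternatives covered probe set choice, scaling, a level filter, all probe sets, the empirical Bayes settings, the block, each line left out, and thresholds. Probes shared between related chemokines were not examined here. With 1 array per group, the number of arrays limits precision.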

Additional observations from a re-analysis of the deposited data

Results flagged for a closer look

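No group had more than 1 array, so single arrays could not be checked against others of their group. None of the 8 members had changes of opposite sign in the lines. Of the other genes named, cell type markers left out, 16 had them on single pairs of arrays. Many did so by small amounts, and the difference in sign itself was not tested. Rarres2 had a change of -0.42 in RAW264.7 but 1.23 in L929, Ackr2 one of -0.12 in RAW264.7 but 1.27 in NIH3T3, and Ccl26 one of -0.14 in NIH3T3 but 0.50 in L929. The lowest change in NIH3T3 was -0.42 for Cx3cl1, -0.17 for Ccl9 and -0.15 for Wfdc17. The lowest change in L929 was -0.45 for Ccl17, -0.35 for 1700071K01Rik, -0.05 for Ltf, -0.02 for Tmem132e and -0.02 for Ccl6. The lowest change in RAW264.7 was -0.22 for Clec5a, -0.13 for Cmklr1, -0.12 for Itga4, -0.09 for Ccl11 and -0.03 for Heatr9. Rarres2, Ackr2 and Ccl26 did not pass the limma interaction test in any line. Among the interferon and NF-kB genes named, 4 passed it for a line set against the other two. The RAW264.7 change minus the mean of the fibroblast lines was -3.31 for Ifit1, -2.36 for Ifit3 and -3.86 for Usp18 on the log2 scale. Il6 differed by 3.12 in L929 (adjusted p = 0.0160) and by -2.00 in RAW264.7 (adjusted p = 0.0276). On simulated data the RAW264.7 interaction fit made false calls above its nominal rate, and the fits for the other lines were not simulated.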

How the results depend on the processing

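The direction of each of the 8 mean changes held under every alternative that gave a value. Only the scalings could have altered it. The other alternatives repeated the same mean change or left out 1 of 3 lines that had all risen. The count of 3 members called across lines was 1 after quantile normalization (Ccl2), 0 with all probe sets tested together, where the limma adjusted p of Ccl2 was 0.0965, and 5 at an adjusted p under 0.1. Without the replicate block, that is without the cell line in the model, it was 0. Leaving out 1 line gave 2 to 3, with different members: Ccl2 and Ccrl2 without NIH3T3, Ccl2, Ccl4 and Ccl12 without L929, and Ccl2, Ccl7 and Ccrl2 without RAW264.7. The fit without RAW264.7 gave every member the same SE. With trend and robust variances Ccl12 passed (adjusted p = 0.0429) and Ccrl2 did not (0.0585). The level filter left Ccl12, Ccl22 and Ccrl2 untested. At 2-fold NIH3T3 counted 5 in place of 0 and RAW264.7 4 in place of 1. In alternatives added after the data were seen, the 2-fold counts with centred arrays and after quantile normalization were 4 in RAW264.7, 3 in L929 and 2 in NIH3T3, with Ccl3, Ccl4 and Ccl12 under 2-fold in NIH3T3. At 5-fold L929 and RAW264.7 counted 0 each. With arrays centred on their median RAW264.7 counted 2 at 3-fold, as Ccl4 reached 1.60. The interaction counts were 0 under the alternatives run for them, namely probe set choice, both scalings, the level filter, all probe sets and an adjusted p under 0.1. Where no value above bears on it, the cause was not tested. Low levels of Ccl12 and Ccl22, and of Ccl3 in the fibroblast lines, limit what their changes can show.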

Other observations

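Cx3cl1, which encodes the membrane-bound chemokine fractalkine, lies between Ccl22 and Ccl17 on chromosome 8. It had log2 levels of 5.85 in stimulated and 5.99 in unstimulated L929, 6.35 and 6.77 in NIH3T3, and 5.16 and 4.54 in RAW264.7. Its level was highest in NIH3T3 in both conditions. Its changes were -0.15, -0.42 and 0.62 in that order of lines (limma adjusted p = 0.996). Ccl17, an attractant of Th2 cells that shares the receptor Ccr4 with Ccl22, had changes of -0.45, 0.14 and 0.27 (limma adjusted p = 0.997). Next to Ccrl2 lie Ltf, the lactoferrin gene, with a mean change of 0.03, and Lrrfip2, with one of -0.19, beside 1.61 for Ccrl2.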
